A study of Mus musculus with 10 samples.

Results

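The elastic and pericellular matrix genes followed here were *Eln*, *Fbn1*, *Fn1*, *Postn*, *Reln*, *Tgfbi*, *Emilin1*, *Fbln2*, *Bgn* and *Prelp*, which are 10 of the 46517 Ensembl genes in the count tables. They were taken as a named list and matched by Ensembl identifier, so no level or fold change of these genes entered the choice of cells. The 10 genes themselves were chosen with earlier results of these data known. The shares of all genes set beside counts of them are therefore background and not a test. The cells in which the genes were read were selected on the counts of other genes. A cell was called a lymphatic endothelial cell (LEC) where *Prox1*, *Flt4* and *Mmrn1* summed to at least 300 CPM (reads of a gene scaled to a common total) and to more than *Flt1*, *Emcn* and *Podxl*, and a blood endothelial cell (BEC) where the latter sum was the larger. A LEC with at least 300 CPM of *Cldn11* was called a valve LEC. These marker genes are descriptions of the classes, and carry no test here.

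Single cells were sorted by Podoplanin and CD31 from the ear skin of 5-week-old mice and sequenced with Smart-Seq2, a full-length method in which 1 well holds 1 cell. The mutant mice (n = 5) carried *Pik3ca*H1047R and Cre-positive *Cdh5-CreERT2*. In them 4-hydroxytamoxifen (4-OHT), painted on the ears at 3 weeks of age, starts expression of an activated PI3K subunit in endothelial cells, blood and lymphatic alike. Control 1 was an untreated C57BL/6J mouse. Control 2 was a Cre-negative littermate that had received 4-OHT, so the controls differed from each other in genotype and treatment. A further Cre-negative mouse was not analysed here. The labels name the sorted cells LECs, but the study's methods describe a sort of both LECs and BECs. The markers split the 3248 cells that passed the filters into 1641 LECs, among them 231 valve LECs, and 1542 BECs. A further 65 cells were in neither class. Each mouse gave 175 to 367 LECs, 163 to 340 BECs and 19 to 57 valve LECs. Counts were summed over the cells of a class in each mouse, and a mouse is the unit of every comparison. The summed reads of a mouse came to 55616045 to 194353210 in LECs, 39610940 to 102714572 in BECs and 5906709 to 21490524 in valve LECs.

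Endothelial cells lay down and organise part of the matrix on which they sit. Elastin, the product of *Eln*, is deposited on fibrillin microfibrils made from *Fbn1*. The fibulin of *Fbln2* and the elastin microfibril interfacer of *Emilin1* bind at the border of elastin and microfibril. In lymphatic vessels emilin-1 is known as a part of the anchoring filaments that tie LECs to the surrounding tissue, and fibronectin (*Fn1*) is the matrix on which valve leaflets are built. *Bgn* and *Prelp* encode small leucine-rich proteins that bind collagens. *Tgfbi* and *Postn* encode related secreted proteins that bind integrins and collagens. *Reln* encodes reelin, a secreted glycoprotein best known from the developing brain that is also made by LECs.

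The summed marker levels stood with the classes. In the LECs, *Pdpn*, *Lyve1* and *Ccl21a*, which no rule had used, summed to 2627 to 3814 CPM against 69.1 to 437 CPM in the BECs. *Plvap*, *Cd34* and *Ly6c1* summed to 4754 to 6370 CPM in the BECs against 751 to 1226 CPM in the LECs. The valve genes *Gdf10*, *Slc41a1*, *Neo1*, *Gjd3* and *Foxc2* summed to 1583 to 4551 CPM in valve LECs and to 258 to 482 CPM in the other LECs. The cut at 300 CPM of *Cldn11* was not a gap in the data, since 82 of the 231 valve LECs lay between 300 and 600 CPM and 67 further LECs lay between 150 and 300 CPM. BEC markers were not absent from LECs, with a sum of at least 300 CPM in 1048 of the 1641 LECs. In the LECs of a mouse *Emcn* lay at 299 to 505 CPM and *Podxl* at 172 to 272 CPM, but *Flt1* at 1.64 to 17.4 CPM. The fits without cells carrying both marker sets leave out these 1048 LECs. The endogenous *Pik3ca* gene was read at 30.8 and 45.1 CPM in control LECs and at 22.3 to 40.8 CPM in mutant LECs. It does not check the labels because the transgene has a sequence of its own that is not among the genes counted.

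Differences between the libraries stand beside all comparisons of genotype. The 12 fibroblast and mural genes followed as a sign of other cells summed to 1865 and 1308 CPM in the BECs of control 1 and control 2 and to 174 to 552 CPM in those of the mutants. In the LECs they summed to 589 and 349 CPM against 68.0 to 164 CPM. In the BECs 8 of the 12 were higher in both controls than in any mutant and none was lower, and only *Notch3* was at 0 in a mouse. In the LECs the same count was 8 and no gene was at 0. Mutant 1 to mutant 4 came from a lower series of plate numbers, whereas mutant 5 and both controls came from plates of a higher series of numbers, so that genotype and plate series overlap in mutant 5 alone. In a fit with the plate series as a term, the genotype effect is therefore that of mutant 5 alone against the controls. Whether either moved the matrix genes was not tested beyond the fits without such cells and with the plate series as a term that are given below. In sums over cells, fewer cells that express a gene and less RNA per cell cannot be told apart. Spike-in rows held 0.723% and 0.897% of all counts on the plates of control 1 and control 2. On the mutant plates they held 0.217% to 0.467%. CPM are relative to the reads in genes, and whether the RNA per well differed between the genotypes was not tested.

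Per length of exon, the 10 genes spanned a wide range in LECs. *Prelp* and *Tgfbi* stood highest, the former at 434 RPKM in the controls and 334 ± 75.8 RPKM in the mutants and the latter at 361 RPKM in the controls and 254 ± 32.1 RPKM in the mutants (RPKM, the CPM divided by the exon length in kilobases, with the SD over the 5 mutants). In the mutants *Fbln2* and *Eln* came next. *Fbln2* had 41.9 RPKM in the controls and 107 ± 54 RPKM in the mutants, and *Eln* had 38.6 RPKM in the controls and 81.8 ± 8.97 RPKM in the mutants. By the control means *Bgn*, at 75.9 RPKM, came before *Fbln2*, and *Reln*, at 40.5 RPKM, before *Eln*. *Postn* had the lowest means, at 3.7 RPKM in the controls and 13.4 ± 5.53 RPKM in the mutants. Between these ends *Emilin1*, *Bgn*, *Fn1*, *Fbn1* and *Reln* followed in that order in the mutants, with means of 20.4 to 46.9 RPKM. The mutant ranges of *Prelp* and *Tgfbi*, of *Fbln2* and *Eln*, of *Emilin1*, *Bgn* and *Fn1*, of *Fn1* and *Fbn1*, of *Fbn1* and *Reln*, and of *Reln* and *Postn* overlapped, so the order within these neighbours is not settled by their spread. For *Tgfbi* the deposited exon length of 2678 bases is shorter than the 3771 exon bases of the annotation, and its level per length would be lower with the latter. The order was another one in BECs, where *Fbln2* (103 RPKM in the controls and 209 ± 24.8 RPKM in the mutants), *Bgn* (52.6 RPKM in the controls and 189 ± 32.3 RPKM in the mutants) and *Eln* (39.4 RPKM in the controls and 159 ± 28.2 RPKM in the mutants) led in the mutants, and *Reln* was lowest, with means of 1.06 and 0.519 RPKM in controls and mutants.

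**Figure D1:**
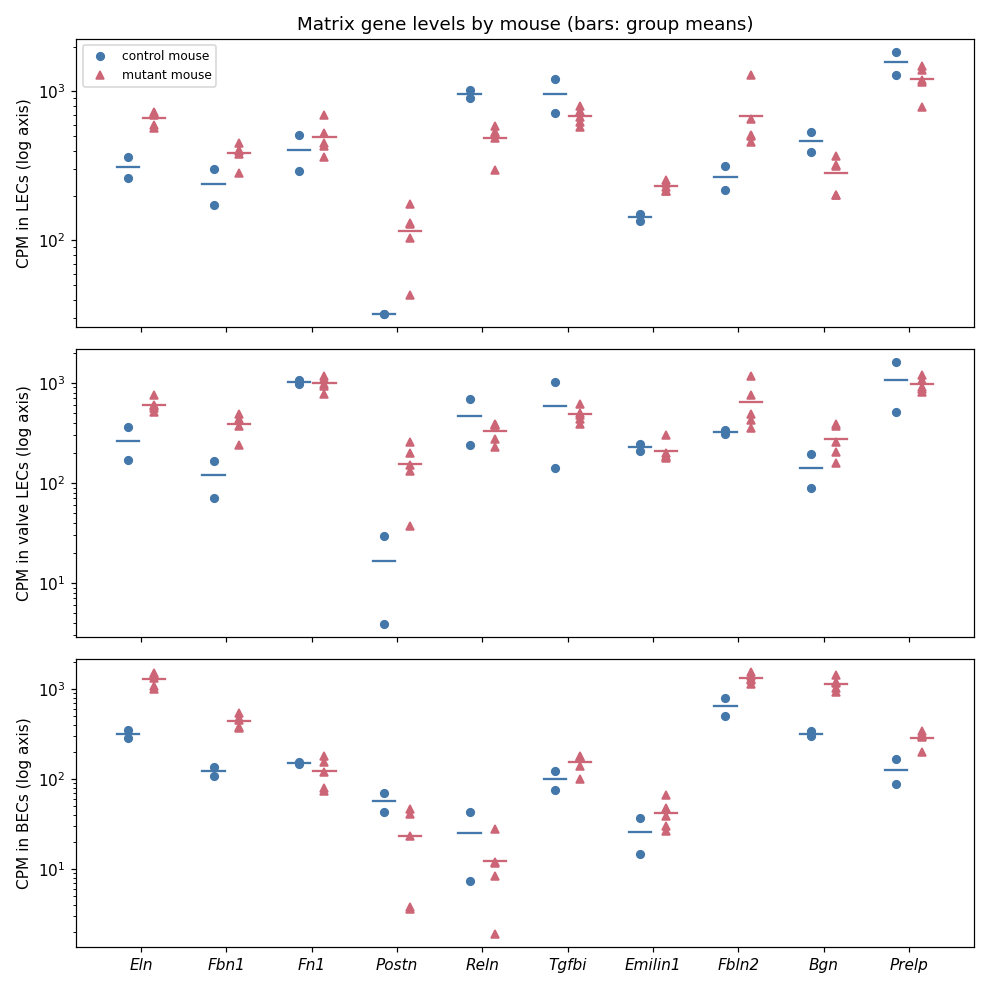
Level of each matrix gene in LECs, valve LECs and BECs, in CPM of the reads summed over the cells of a mouse (log axis). Blue circles are the 2 control mice, red triangles the 5 mutant mice and bars the group means; *Eln* lay above both controls in every mutant in all 3 panels, while *Bgn* lay below both controls in mutant LECs and above them in mutant BECs.

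The elastic fibre genes were first compared between mutant and control LECs. Levels are listed for control 1 and control 2 and then for mutant 1 to mutant 5, in order. Changes are log2 ratios of mutant to control from the fit, given with ± 1 SE. *Eln*, the elastin gene on chromosome 5 (GRCm38, ENSMUSG00000029675, chr5:134702593-134747323, minus strand), was read at 261 and 364 CPM in the controls and 719, 696, 597, 572 and 728 CPM in the mutants. The mutants lay above both controls without overlap, with a change of 1.14 ± 0.16, adjusted p = 0.0138 by edgeR's quasi-likelihood test. Mutant 5, the only mutant from the controls' plate series, had the highest level of all. With the plate series as a term, which sets mutant 5 alone against the controls, the change was 1.27. Without control 1 it was 0.98, adjusted p = 0.056. *Emilin1* (ENSMUSG00000029163, chr5:30913402-30921277, plus strand) was read at 136 and 151 CPM in the controls and 228, 255, 216, 242 and 216 CPM in the mutants. Here the 5 mutants fell in a narrow band above the controls (0.74 ± 0.13, adjusted p = 0.0303), but the call was lost with the plate series as a term (0.63, adjusted p = 0.192) and without control 1 (0.74, adjusted p = 0.0786) or control 2 (0.77, adjusted p = 0.078). It was also lost without any of mutant 1 to mutant 4, with adjusted p from 0.0576 to 0.0756. The change itself was smaller without cells carrying both LEC and BEC markers (0.49, adjusted p = 0.324) and in cells thinned to 50000 reads (0.47, adjusted p = 0.146). These were the only 2 of the 10 genes that were called higher in mutant LECs, beside 1.96% of the 19753 genes tested, and none was called lower, beside 0.805% of them.

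*Fbn1*, the fibrillin-1 gene (ENSMUSG00000027204, chr2:125300594-125507993, minus strand), was read in LECs at 174 and 302 CPM in the controls and 405, 398, 449, 383 and 285 CPM in the mutants. Mutant 5 lay below control 2, and the difference was not called (0.75 ± 0.24, adjusted p = 0.129). Of the exon bases of *Fbn1*, 20.1% are shared with the gene *Gm9913*, as are 9.68% of those of *Prelp* with *Gm15851*, and Smart-Seq2 does not mark the strand, so reads there cannot be assigned to either gene. *Fbln2*, which encodes a fibulin of basement membranes and elastic fibres (ENSMUSG00000064080, chr6:91212455-91272540, plus strand), was read at 316 and 217 CPM in the controls and 503, 513, 651, 455 and 1281 CPM in the mutants. All mutants lay above both controls, but mutant 5 stood far above the other mutants and the spread was wide (1.39 ± 0.44, adjusted p = 0.129). With the plate series as a term, which sets mutant 5 alone against the controls, the change was 2.29. The fit without mutant 5 did not call *Fbln2* (1.03, adjusted p = 0.0605).

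Among the integrin-binding and pericellular genes, *Postn* (periostin, ENSMUSG00000027750, chr3:54361109-54391037, plus strand) was read in LECs at 32.1 and 32.3 CPM in the controls and 131, 43.1, 174, 105 and 129 CPM in the mutants. Every mutant lay above both controls, mutant 2 by little, and the difference just missed the threshold (1.90 ± 0.48, adjusted p = 0.0746). It was carried by few cells: the 10% of LECs richest in *Postn* held 90.9% to 99.2% of its CPM summed over cells in each mouse, whereas for *Eln* such cells held 27.8% to 58.4%. Without cells carrying at least 300 CPM of fibroblast and mural markers the difference in *Postn* was called (2.33, adjusted p = 0.0313), and without cells that had both LEC and BEC markers it was small (0.31, adjusted p = 0.829). *Reln* (ENSMUSG00000042453, chr5:21884454-22344702, minus strand) went the other way, with 1017 and 907 CPM in the controls and 583, 538, 524, 486 and 295 CPM in the mutants. The mutants lay below both controls without overlap, mutant 5 lowest (-0.94 ± 0.23, adjusted p = 0.0685). With the plate series as a term, which sets mutant 5 alone against the controls, the change was -1.67. *Bgn*, the biglycan gene (ENSMUSG00000031375, chrX:73483602-73495933, plus strand), was read at 532 and 394 CPM in the controls and 319.8, 370.1, 318, 202 and 201 CPM in the mutants, again below both controls in every mutant but not called (-0.68 ± 0.27, adjusted p = 0.212). Both genes and the fibroblast and mural markers were lower in mutant LECs, and without the cells rich in those markers the changes were -0.98, adjusted p = 0.0739 for *Reln* and -0.48, adjusted p = 0.363 for *Bgn*.

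The 3 remaining genes did not separate the genotypes in LECs. *Fn1* (ENSMUSG00000026193, chr1:71585520-71653200, minus strand) was read at 295 and 512 CPM in the controls and 698, 529, 452, 362 and 431 CPM in the mutants, and the mutants fell on both sides of control 2 (0.35 ± 0.27, adjusted p = 0.501). *Tgfbi*, the gene of a secreted integrin ligand induced by TGFβ (ENSMUSG00000035493, chr13:56609523-56639562, plus strand), was read at 1217 and 715 CPM in the controls and 619, 738, 793, 671 and 582 CPM in the mutants. Control 1 stood above all other mice and control 2 within the mutants (-0.47 ± 0.22, adjusted p = 0.283). *Prelp* (ENSMUSG00000041577, chr1:133910304-133921414, minus strand) was read at 1842 and 1298 CPM in the controls and 1203, 1492, 1404, 1149 and 787 CPM in the mutants, with control 2 inside the range of the mutants (-0.34 ± 0.25, adjusted p = 0.483). Counted without a test, 4 of the 10 genes (*Eln*, *Postn*, *Emilin1*, *Fbln2*) were above both controls in all mutants, as were 12.5% of all genes tested, and 2 (*Reln*, *Bgn*) were below both controls in all mutants, as were 12.7%.

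In BECs more of the genes were called, and *Eln* and *Fbln2* had the same direction as in LECs. *Eln* was read at 349 and 289 CPM in the controls and 1477, 1325, 1011, 1100.4 and 1532 CPM in the mutants, and the lowest mutant was well above the higher control (2.07 ± 0.21, adjusted p = 0.00547). *Fbn1* was read at 108 and 136 CPM in the controls and 383, 455, 539, 478 and 375 CPM in the mutants, again with no overlap (1.93 ± 0.21, adjusted p = 0.00641). *Bgn*, which had been lower in mutant LECs, was read in BECs at 339.9 and 301 CPM in the controls and 1444, 1166, 1197, 926 and 1026 CPM in the mutants (1.91 ± 0.21, adjusted p = 0.00657). *Fbln2* was read at 807 and 508 CPM in the controls and 1297, 1415, 1264, 1136 and 1553 CPM in the mutants, with no overlap either (1.08 ± 0.21, adjusted p = 0.0473). The call of *Fbln2* was lost without control 2 (0.78, adjusted p = 0.137) and without any of mutant 1 to mutant 4, with adjusted p from 0.0613 to 0.0973. Of 17 alternative fits, 6 called *Fbln2*. These 4 of 10 genes were called higher, beside 1.36% of the 19518 genes tested; none was called lower, beside 0.507%. *Prelp*, at 166 and 88.3 CPM in the controls and 320.4, 340.0, 294, 299 and 200.01 CPM in the mutants, was also higher in each mutant than in either control but missed the threshold (1.26 ± 0.31, adjusted p = 0.0827), so that 5 of the 10 genes stood above both controls in all mutants, as 12.2% of all genes did.

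The fibroblast and mural markers, which were higher in the controls, moved with genotype in these sums as well. Among the BECs, 63.8% and 41.5% of cells in control 1 and control 2 carried at least 300 CPM of these 12 genes, against 17.9% to 25.6% in the mutants. When such cells were left out, *Eln* (1.93, adjusted p = 0.0107), *Fbn1* (2.14, adjusted p = 0.00414) and *Bgn* (2.71, adjusted p = 0.00256) remained called, *Prelp* was called as well (1.95, adjusted p = 0.0274) and *Fbln2* was not (0.85, adjusted p = 0.0972). With the plate series as a term mutant 5 alone is set against the controls. There *Bgn* (1.71), *Fbn1* (1.65) and *Fbln2* (1.26) were no longer called, and the change of *Eln* was 2.29. Mutant 5, which shared the plate series of the controls, had 1532 CPM of *Eln*, 375 CPM of *Fbn1* and 1026 CPM of *Bgn*, each above both controls.

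**Figure D2:**
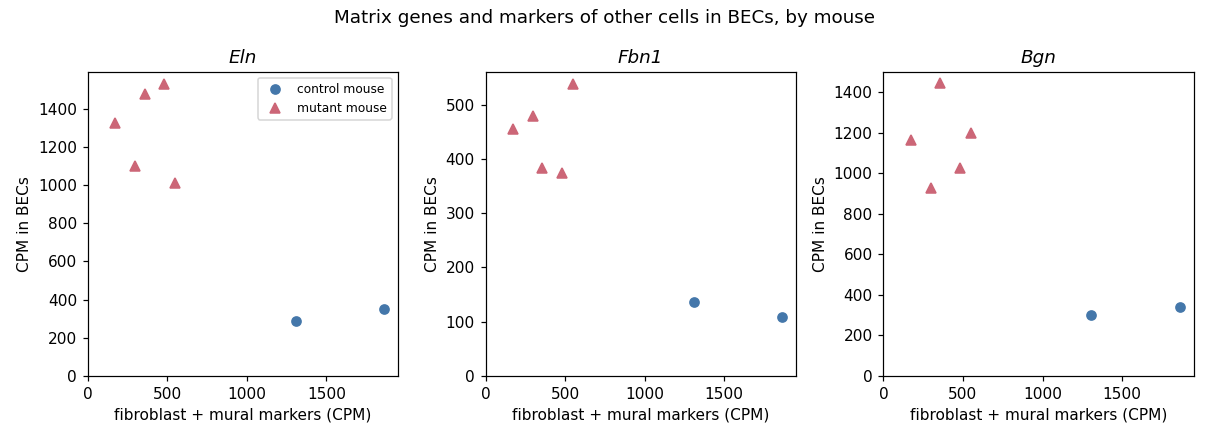
Level of *Eln*, *Fbn1* and *Bgn* in the BECs of each mouse (CPM) against the summed level of 12 fibroblast and mural marker genes in the same cells (CPM). The 2 controls (blue circles) lie at 1308 and 1865 CPM of markers and low on the vertical axis, and the 5 mutants (red triangles) lie at 174 to 552 CPM of markers and high on it.

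The other 5 genes were not called in BECs. *Tgfbi* was read at 123 and 76 CPM in the controls and 176, 99.4, 139.8, 181 and 177 CPM in the mutants, *Emilin1* at 36.6 and 14.5 CPM in the controls and 65.8, 47.7, 29.8, 38.9 and 26.2 CPM in the mutants and *Fn1* at 147 and 156 CPM in the controls and 183, 80.6, 119, 74.4 and 156 CPM in the mutants. For each of them the genotypes overlapped. *Postn* (43.2 and 69.9 CPM in the controls and 3.71, 3.58, 40.5, 23.2 and 46.2 CPM in the mutants) and *Reln* (42.9 and 7.42 CPM in the controls and 27.9, 11.9, 8.41, 1.87 and 11.5 CPM in the mutants) varied between mice of the same genotype by a factor of several, and the 10% of BECs richest in *Postn* held 66.7% to 100.0% of its CPM summed over cells.

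The promoters of *Fbn1*, *Fbln2* and *Bgn* are shown because the reported fit called these genes higher in BECs. RefSeq promoters (GRCm38.p6) were matched for 8 of the 10 genes, and *Eln* and *Fn1* were not among them. Each line gives the 250 bases before the RefSeq start site, 5′ to 3′ on the strand of the gene, at chr2:125506439-125506688 (minus strand) for *Fbn1*, chr6:91212514-91212763 (plus strand) for *Fbln2* and chrX:73483351-73483600 (plus strand) for *Bgn*. The start sites differ from the gene bounds given above, so the windows of *Fbn1* and *Fbln2* lie within those bounds. Capitals mark GGGCGG, the GC box, or its reverse complement.
Fbn1: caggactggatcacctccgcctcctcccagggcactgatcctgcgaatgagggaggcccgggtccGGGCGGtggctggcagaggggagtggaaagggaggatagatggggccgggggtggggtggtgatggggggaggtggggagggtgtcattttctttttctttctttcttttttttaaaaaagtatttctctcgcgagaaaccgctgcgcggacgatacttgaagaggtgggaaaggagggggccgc
Fbln2: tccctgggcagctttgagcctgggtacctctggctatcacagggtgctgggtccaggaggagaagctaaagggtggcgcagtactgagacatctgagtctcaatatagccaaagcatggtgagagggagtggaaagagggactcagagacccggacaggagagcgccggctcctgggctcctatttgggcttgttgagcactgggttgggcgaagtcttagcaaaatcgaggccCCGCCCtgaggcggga
Bgn: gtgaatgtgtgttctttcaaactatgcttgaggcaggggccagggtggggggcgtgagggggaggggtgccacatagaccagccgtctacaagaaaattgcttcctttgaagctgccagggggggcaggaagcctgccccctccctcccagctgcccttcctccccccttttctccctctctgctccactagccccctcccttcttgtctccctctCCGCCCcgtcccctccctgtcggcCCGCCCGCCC
*Bgn* held 3 such matches, 2 of them overlapping, and *Fbn1* and *Fbln2* held 1 each. The GC box was found on either strand in 32.7% of the 32851 promoters of the table. The forkhead letters GTAAACA (3.17% of all promoters) and the AP-1 letters TGANTCA (6.75%) were in none of the 9 windows of the 8 matched genes, and TATAAA (12.4%) was in 1 of the 2 windows of *Postn* only. A match is a description of the letters and not a bound site.

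The genotype effect was next compared between LECs and BECs in 1 model with the mouse as a block. The log2 effect in LECs minus that in BECs was -2.61 ± 0.20, adjusted p = 0.00777 for *Bgn* and -1.67 ± 0.15, adjusted p = 0.0148 for *Prelp*. These were 2 of the 10 genes, beside 0.127% of the 21973 genes tested with a smaller effect in LECs. In within-mouse terms, *Bgn* was 1.56 and 1.31 times as high in LECs as in BECs in the 2 controls and 0.196 to 0.318 times as high in the mutants, so that the order of the classes was opposite. *Prelp* stayed higher in LECs in all 7 mice, by 11.1 and 14.7 times in the controls and 3.75 to 4.77 times in the mutants. *Fbn1* was close to the threshold (-1.17 ± 0.17, adjusted p = 0.0527), and the smaller effect on *Eln* in LECs was not called (-0.94 ± 0.19, adjusted p = 0.127). Both calls were lost without either control. Without control 1 the values were -2.48, adjusted p = 0.0673 for *Bgn* and -1.87, adjusted p = 0.0502 for *Prelp*, and without control 2 they were -2.77, adjusted p = 0.0742 and -1.50, adjusted p = 0.0747. The call of *Prelp* was also lost without mutant 4 (-1.65, adjusted p = 0.0516) and with the plate series as a term (-1.72). That term sets mutant 5 alone against the controls, and with it the value of *Bgn* was -2.88. The call of *Bgn* was also lost without cells carrying both marker sets (-2.80, adjusted p = 0.1).

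**Figure D3:**
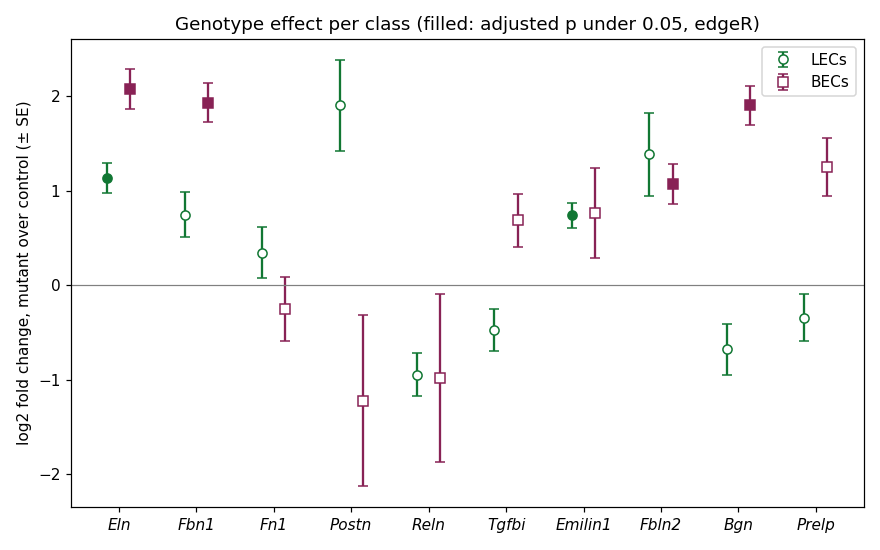
Log2 fold change of mutant over control for each matrix gene in LECs (green circles) and BECs (purple squares), with the standard error of the fit; filled symbols passed an adjusted p of 0.05 in edgeR's quasi-likelihood test. *Bgn* and *Prelp* lie on opposite sides of 0 in the 2 classes, and *Eln* lies above 0 in both.

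Leaving genotype aside, 8 of the 10 genes differed between LECs and BECs of the same mice, as log2 ratios of LEC to BEC. Higher in LECs were *Reln* (5.66 ± 0.51, adjusted p = 4.78e-05), *Emilin1* (2.58 ± 0.20, adjusted p = 2.38e-05), *Prelp* (2.50 ± 0.28, adjusted p = 0.000169), *Tgfbi* (2.48 ± 0.24, adjusted p = 6.65e-05) and *Fn1* (1.87 ± 0.18, adjusted p = 7.59e-05), each in 7 of 7 mice, beside 14.3% of the 17651 genes tested. *Reln* differed most, by 20.9 to 261 times within a mouse. Lower in LECs were *Fbln2* (-1.14 ± 0.14, adjusted p = 0.000321) in 7 of 7 mice, *Eln* (-0.69 ± 0.17, adjusted p = 0.0135) in 6 of 7 and *Bgn* (-1.38 ± 0.43, adjusted p = 0.0429) in the 5 mutants, beside 12.2% of genes. Without any 1 mutant *Bgn* was not called, with adjusted p from 0.0937 to 0.109, nor without cells rich in fibroblast and mural markers (-1.27, adjusted p = 0.141). *Fbn1* (0.10 ± 0.19, adjusted p = 0.748) and *Postn* (1.84 ± 0.74, adjusted p = 0.104) were not called. The values of *Bgn* and *Prelp* combine genotypes between which the LEC to BEC difference was called unequal, as given above. For *Fbn1* the ratio of LEC to BEC was 1.60 and 2.23 in the controls and 0.761 to 1.06 in the mutants. For *Eln* it was 0.747 and 1.26 against 0.475 to 0.591. For *Postn* it was 0.742 and 0.462 against 2.79 to 35.4, and for *Tgfbi* 9.90 and 9.41 against 3.29 to 7.43. None of these differences between genotypes was called. For *Fn1*, *Reln*, *Emilin1* and *Fbln2* the ratios overlapped.

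Within the LECs, the genes were also read in classes set by *Lyve1*, a marker of capillary LECs, and by *Ptx3*. These classes were cut at 1000 CPM of *Lyve1* and 100 CPM of *Ptx3* with the valve LECs set aside, and *Ptx3*-high LECs numbered 11 and 44 in the controls and 53 to 154 in the mutants. In *Ptx3*-high LECs *Reln* was read at 995 and 951 CPM in the controls and 362, 319, 285, 186 and 169 CPM in the mutants (-1.93 ± 0.28, adjusted p = 0.0114), and *Bgn* at 651 and 283 CPM in the controls and 130.2, 165, 163, 71.4 and 99.6 CPM in the mutants (-1.98 ± 0.39, adjusted p = 0.0287). *Eln* (165 and 355 CPM in the controls and 685 to 897 CPM in the mutants) and *Fbln2* (255 and 276 CPM and 508 to 1568 CPM) were higher in these cells, by 1.55 ± 0.25, adjusted p = 0.015 and 1.71 ± 0.41, adjusted p = 0.0486. *Tgfbi* (1379 and 555 CPM in the controls and 382 to 531 CPM in the mutants) was below both controls in every *Ptx3*-high mutant sum but not called. The same held for *Prelp* (1135 and 1167 CPM in the controls and 624 to 929 CPM in the mutants). How many of all genes lay below both controls in *Ptx3*-high LECs was not counted. In *Lyve1*-high *Ptx3*-low LECs none of the 10 genes was called. *Eln* was at 259 and 324 CPM in the controls and 487 to 790.2 CPM in the mutants there (1.08 ± 0.22, adjusted p = 0.0854), and *Reln* at 1347 and 1251 CPM and 455 to 1199.6 CPM (-0.59 ± 0.31, adjusted p = 0.466). In *Lyve1*-low *Ptx3*-low LECs, where none of the 10 was called either, *Eln* was at 334 and 452 CPM and 377 to 590.1 CPM (0.31 ± 0.25, adjusted p = 0.848). There *Reln* was at 483 and 494 CPM and 390.3 to 667 CPM, on both sides of the controls (0.20 ± 0.26, adjusted p = 0.93), and *Bgn* at 701 and 531 CPM and 389 to 699 CPM (-0.15 ± 0.26, adjusted p = 0.959). In *Ptx3*-high LECs 4 of the 10 genes and 827 of all genes were called. The fits in *Lyve1*-high *Ptx3*-low and *Lyve1*-low *Ptx3*-low LECs called 44 and 0 of all genes. The number of genes tested in these fits is not given here, so the counts have no background share beside them. The differences between the classes in these effects were not tested, and the sums of control 1 in *Ptx3*-high LECs rest on 11 cells.

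**Figure D4:**
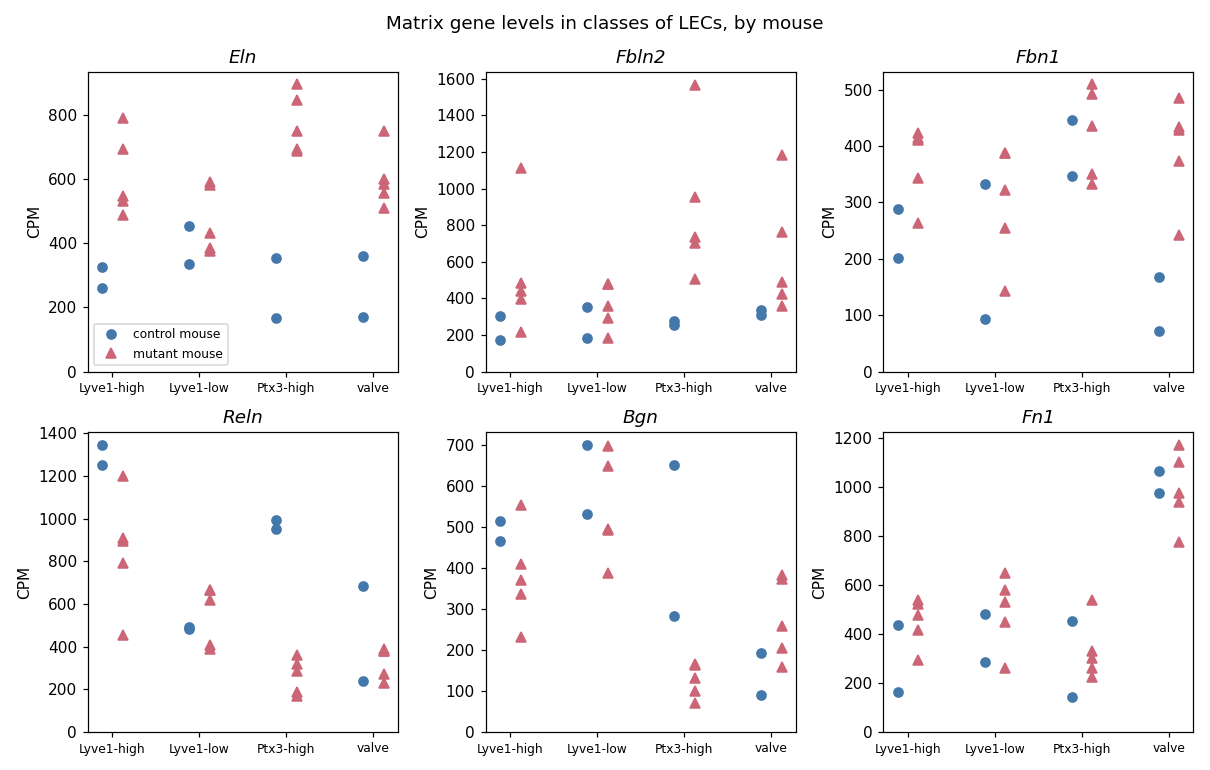
Levels of 6 matrix genes (CPM, linear axis from 0) in *Lyve1*-high *Ptx3*-low, *Lyve1*-low *Ptx3*-low, *Ptx3*-high and valve LECs, with 1 point for each control (blue circle) and mutant (red triangle) mouse. In *Ptx3*-high LECs of the mutants *Reln* lies at 169 to 362 CPM and *Bgn* at 71.4 to 165 CPM, below both controls, and *Fn1* is highest in valve LECs of both genotypes.

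Valve LECs differed from the other LECs of the same mice in *Fn1*, with changes given as log2 ratios of valve to other LECs. Its level in valve LECs was 977 and 1066 CPM in the controls and 1105, 975, 775, 938 and 1174 CPM in the mutants, and in the other LECs 197 and 453 CPM in the controls and 577, 458, 381, 294 and 345 CPM in the mutants. It was 1.92 to 4.95 times as high in valve LECs in 7 of 7 mice (1.51 ± 0.17, adjusted p = 0.00334), and the only one of the 10 genes called higher there, beside 0.843% of the 15302 genes tested. None was called lower, beside 0.588%. The study had named *Fn1* and *Fbln2* as valve genes from cells that include these, so the direction is not independent evidence. *Fbln2* was 0.765 to 1.49 times as high (0.08 ± 0.12, adjusted p = 0.809). *Reln* was lower in valve LECs in 7 of 7 mice but not called (-0.75 ± 0.19, adjusted p = 0.0956). The median of all genes in this fit was -0.19, and against other LECs with less than 1000 CPM of *Lyve1* the call of *Fn1* was lost (1.27, adjusted p = 0.0626).

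Between mutant and control valve LECs, which numbered 19 to 57 a mouse, edgeR called none of the 10 genes, and 0% of the 13948 genes tested (1760 had an unadjusted p under 0.05, and DESeq2 called 915). *Fbn1* was read at 71.2 and 167 CPM in the controls and 374, 485, 434, 428 and 242 CPM in the mutants, with all mutants above both controls (1.71 ± 0.39, adjusted p = 0.19). *Eln* (170.2 and 359.9 CPM in the controls and 750.3, 584, 599, 556 and 511 CPM in the mutants) and *Postn* (3.88 and 29.6 CPM in the controls and 199, 37.5, 131, 151 and 258 CPM in the mutants) were also above both controls in all mutants. They differed by 1.16 ± 0.29, adjusted p = 0.217 and 3.21 ± 0.91, adjusted p = 0.247, respectively. DESeq2 called these 3 genes. *Fbln2* lay above both controls as well (337 and 309 CPM in the controls and 425, 487, 764, 357 and 1183 CPM in the mutants), which made 4 of the 10 genes, where 10.4% of all genes showed it. *Fn1*, the gene that marked the class, overlapped between the genotypes (-0.08 ± 0.19, adjusted p = 0.897). *Reln* (-0.56 ± 0.39, adjusted p = 0.573), *Tgfbi* (-0.36 ± 0.55, adjusted p = 0.823), *Prelp* (-0.21 ± 0.38, adjusted p = 0.859), *Emilin1* (-0.17 ± 0.29, adjusted p = 0.843) and *Bgn* (0.90 ± 0.45, adjusted p = 0.431) overlapped as well.

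After thinning to 50000 reads, the share of cells with a read was higher in every mutant than in both controls for *Eln* and *Fbn1* in all 3 classes. *Fbn1* was read in 40.5% and 36.6% of control BECs and in 60.4% to 86.6% of mutant BECs, and *Eln* in 75.5% and 58.5% against 84.5% to 99.5%. In LECs *Emilin1* was read in 37.7% and 36.6% of control cells and 50.5% to 66.8% of mutant cells. Its shares overlapped in BECs and in valve LECs, where the mutant mean was 6.29 percentage points higher although its summed level was not. *Fbln2* overlapped in all 3 classes, with 75.4% and 58.3% of control LECs against 66.3% to 98.4% of mutant LECs. In valve LECs its mutant mean share was below that of the controls by -3.93 percentage points, whereas its summed level was above both controls in every mutant. *Reln* was read in 96.7% and 93.1% of control LECs and 73.1% to 87.0% of mutant LECs. In BECs, where its summed level was at most 42.9 CPM in any mouse, it was still read in 57.7% and 34.8% of control cells and 7.07% to 53.5% of mutant cells. Over the 30 pairs of gene and class, the mice did not overlap in 9 after thinning, and in 1 in the cells as deposited. How many of all genes separate in this way was not counted. With 5 and 2 mice the two-sided exact permutation test cannot give a p below 0.0952, and after Benjamini-Hochberg adjustment the lowest was 0.317.

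Across single BECs of a mouse, *Eln* went with *Bgn* (median Spearman's rho over the 7 mice 0.51, range 0.09 to 0.61), with *Fbn1* (0.48, range 0.17 to 0.67) and with *Fbln2* (0.44, range 0.18 to 0.52). In LECs the highest values joined *Reln* with *Prelp* (0.40, range 0.13 to 0.49), *Tgfbi* with *Prelp* (0.39, range 0.25 to 0.48) and *Reln* with *Tgfbi* (0.37, range 0.08 to 0.38). The cells of a mouse share a plate and a library batch, so these values are descriptions over 163 to 367 cells a mouse.

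The named partners of these genes were counted in the same fits. Their lists, too, were chosen with earlier results of these data known. Of 20 elastic fibre partners, all were tested in LECs and none was called between genotypes, beside 1.96% of all genes higher and 0.805% lower, with a median log2 fold change of 0.14 against -0.01 for all genes. In BECs 1 was called higher and 1 lower, beside 1.36% and 0.507% of all genes, with a median of -0.28 against 0.01. The higher one was *Fbln5*, which encodes the fibulin that organises elastin on microfibrils, at 283 and 244 CPM in the controls and 653, 480.1, 601, 621 and 972 CPM in the mutants (1.39 ± 0.25, adjusted p = 0.0387). The lower one was *Mfap4*, a microfibril-associated gene, at 45.6 and 27.8 CPM in the controls and 1.97, 1.55, 2.91, 7.61 and 1.94 CPM in the mutants (-3.47 ± 0.61, adjusted p = 0.0355). Between LECs and BECs, where changes are log2 ratios of LEC to BEC, 4 partners were higher in LECs and 5 lower, beside 14.3% and 12.2% of all genes. *Loxl2*, a lysyl oxidase that crosslinks matrix (3.88 ± 0.28, adjusted p = 1.48e-05), *Fbln5* (1.12 ± 0.17, adjusted p = 0.00126) and *Loxl3* (0.70 ± 0.16, adjusted p = 0.0107) were among the higher and *Lox* (-5.05 ± 0.97, adjusted p = 0.00435) and *Mmrn2* (-2.15 ± 0.10, adjusted p = 2.34e-06) among the lower. Of 15 partners tested in valve LECs, the microfibril gene *Mfap2* was higher than in other LECs (2.16 ± 0.40, adjusted p = 0.0307) and *Fbln5* lower (-0.43 ± 0.09, adjusted p = 0.0498), beside 0.843% and 0.588% of all genes.

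Of 12 small leucine-rich proteoglycan genes, 9 were tested in BECs and 3 were called lower in the mutants, beside 0.507% of all genes, and none higher, beside 1.36%. *Dcn* was read at 197 and 117 CPM in the controls and 6.34, 4.43, 0.733, 8.03 and 2.22 CPM in the mutants and *Lum* at 48 and 54.4 CPM in the controls and 2.8, 0.231, 0.744, 3.91 and 2.33 CPM in the mutants, and both are also in the fibroblast marker list that was higher in the controls. *Chad* was read at 84.4 and 40.9 CPM in the controls and at no more than 0.0584 CPM in any mutant. *Dcn*, *Lum* and *Chad* thus lay in the opposite direction to *Bgn* in BECs. In LECs 10 were tested and none was called higher, beside 1.96% of all genes. *Aspn* was called lower (-3.99 ± 0.81, adjusted p = 0.0434), beside 0.805% of all genes. *Aspn* is named after its values were seen, because its level was below the limit for named genes. Between LECs and BECs *Ecm2* was higher in LECs (1.06 ± 0.13, adjusted p = 0.000368) and *Aspn* lower (-2.62 ± 0.79, adjusted p = 0.0366), beside 14.3% and 12.2% of all genes. Of 17 matricellular genes, *Sparc*, which encodes a collagen-binding matrix protein, was the 1 called between genotypes in LECs, beside 1.96% of all genes called higher, at 490.3 and 470.2 CPM in the controls and 1329, 1208, 1278, 1297 and 1598 CPM in the mutants (1.53 ± 0.14, adjusted p = 0.00392). In BECs *Vcan*, the versican gene, was read at 3.97 and 3.85 CPM in the controls and 45.8, 72.8, 77.6, 72 and 51.6 CPM in the mutants (4.10 ± 0.33, adjusted p = 0.00377) and *Hmcn1*, the hemicentin-1 gene, at 17.3 and 8.09 CPM in the controls and 49.8, 45.9, 47.7, 56.3 and 47.1 CPM in the mutants (2.02 ± 0.33, adjusted p = 0.0262), the 2 called there, beside 1.36% of all genes. In valve LECs *Thbs1* (-2.87 ± 0.57, adjusted p = 0.0398), *Tnc* (-4.12 ± 0.79, adjusted p = 0.0344) and *Sparc* (-1.35 ± 0.22, adjusted p = 0.0175) were lower than in other LECs, beside 0.588% of all genes. Between LECs and BECs 6 of the 17 were higher in LECs and 5 lower, beside 14.3% and 12.2% of all genes. Among the higher were *Tnxb* (3.36 ± 0.53, adjusted p = 0.00147), *Comp* (3.05 ± 0.37, adjusted p = 0.000299) and *Hmcn1* (2.00 ± 0.32, adjusted p = 0.00158). Of those that were lower, *Sparcl1* (-6.16 ± 0.37, adjusted p = 6.49e-06) and *Vcan* (-6.11 ± 1.11, adjusted p = 0.00317) differed most at a sufficient level. The reelin receptors and adaptor *Vldlr*, *Lrp8* and *Dab1* were not called between genotypes in either class, and *Vldlr* in BECs was at 1.52 and 9.86 CPM in the controls and 19.8, 39, 46.4, 64.5 and 42.5 CPM in the mutants (2.97 ± 0.76, adjusted p = 0.0926). *Lrp8*, named after its values were seen, was higher in LECs than in BECs (2.27 ± 0.60, adjusted p = 0.021), beside 14.3% of all genes.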

How the data were processed

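The deposited tables held raw counts of reads per Ensembl gene and well, 1 table for each of 9 plates of 384 wells. The authors aligned the reads to GRCm38 with TopHat2 2.1.1, removed duplicates with SAMtools 0.1.18 and counted exonic reads with featureCounts. No molecular identifiers were used, so intervals and floors would cover counting error only. Cells with at least 50000 reads in genes, at least 200 genes and at most 10% mitochondrial counts were kept. Symbols were found for 46005 of 46517 genes, gene coordinates are those of GENCODE vM21 on GRCm38, and the 92 spike-in rows were left out. Doublets were not called. Cells with both marker sets, which include 1048 of the 1641 LECs and 153 of the 1542 BECs, were left out in an alternative.

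Counts were summed per mouse and class, with the plates of mutant 3 and of mutant 5 added, filtered with filterByExpr, scaled with TMM and tested with edgeR 4.0.16's quasi-likelihood test (R 4.3.3) with Benjamini-Hochberg adjustment over all genes tested, at 0.05. Printed CPM are plain and folds come from the scaled fits. LECs and BECs, and valve and other LECs, were compared with the mouse as a block. The scripts were tested on simulated data. DESeq2 1.42.0, other size factors, no filter, other marker cuts, cell subsets, the plate series as a term, the replicate block and each mouse left out were tried as alternatives. The 10 genes, the marker lists and the partner lists were chosen with earlier results of these data known. All 10 genes were named; of each partner list at most the 5 called genes with the largest change and a mean log2 CPM of at least 3 were, and exceptions are marked.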

Additional observations from a re-analysis of the deposited data

Results flagged for a closer look

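In 30 groups of 5 mutant mice, 1 for each gene and class, 2 held a mouse whose gap to its nearest neighbour exceeded 0.71 of the group's range, Dixon's limit for 5 values, and chance alone gives about 1 in 20. One was *Fbln2* in the LECs of mutant 5, at 1281 CPM with a gap of 0.763 of the range. The other was *Emilin1* in the valve LECs of mutant 1, at 302 CPM with a gap of 0.836. The genotype effect differed between LECs and BECs for *Bgn*, by a log2 difference of -2.61, and for *Prelp*, by -1.67, in a test of the difference itself.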

How the results depend on the processing

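Of 1060 refitted values of single genes under the alternatives, 932 kept their direction and side of the threshold, 37 passed it newly, 49 no longer passed it and 42 changed sign. The cause of these changes was not tested. For fits on subsets of cells or mice, on thinned cells or with other marker cuts, the number of genes tested is not given. Counts of genes called in those fits therefore have no background share beside them. The groups of 2 controls and 5 mutants limit every comparison of genotype, and the valve sums rest on 19 to 57 cells a mouse.

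DESeq2 called more genes in 5 of the 6 comparisons by over 1.5 times. Between genotypes it called 6 of the 10 genes and 2490 of all 19753 in LECs, and 2170 of all 19518 in BECs. In valve LECs it called 3 of the 10 and 915 of all 13948. Between valve and other LECs it called 2 of the 10 and 1778 of all 15302. For the difference of the genotype effects it called 6 of the 10 and 1170 of all 21973. These totals are the genes that passed the same expression filter as in the reported fits. *Postn* between valve and other LECs was at 0.00046 with DESeq2 and at 0.012 with its size factors, against -0.022 in the reported fit. With the plate series as a term, 178 of all genes were called in LECs, 37 in BECs with 1 of the 10, and 9 for the difference of the effects with 1 of the 10. That term turned *Fn1* to 0.069 in BECs and to 0.11 in valve LECs, and the difference for *Emilin1* to 0.40.

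The replicate block on the numbers of the mice called 3 of all genes and 0 of the 10 in LECs, and 0 and 0 in BECs. Under the replicate block *Reln* was at 0.12 in BECs, and *Tgfbi* at 0.23 and *Emilin1* at 0.022 in valve LECs. The numbers do not pair the mice, since the labels give no shared litter or day and correlations of deviations between same-numbered mice lay between -0.04 and 0.06.

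Among subsets of LECs, *Lyve1*-high *Ptx3*-low cells gave 0 of the 10 genes and 44 of all, *Lyve1*-low *Ptx3*-low cells 0 and 0, *Ptx3*-high cells 4 and 827, and cells without the cycling ones 1 and 98. In *Lyve1*-low *Ptx3*-low LECs *Reln* was at 0.20 and *Prelp* at 0.074. Without cells carrying both marker sets, *Fn1* in LECs was at -0.11, the difference for *Reln* at 0.27, and 56 of all genes were called between valve and other LECs. Without cells rich in fibroblast and mural markers 597 of all genes were called in BECs and 139 for the difference, *Tgfbi* in valve LECs was at 0.38 and *Postn* between valve and other LECs at 0.0049. With LEC markers of at least 1000 CPM 61 of all genes were called for the difference.

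With *Cldn11* of at least 100 CPM 16 of all genes were called between genotypes in valve LECs and *Emilin1* was at 0.16. With at least 1000 CPM *Fn1* was at 0.51 and *Bgn* at -0.13 there, and between valve and other LECs 3 of the 10 and 837 of all genes were called, with *Fbln2* at -0.0098. Against other LECs with *Lyve1* under 1000 CPM 0 of the 10 and 5 of all genes were called and *Fbn1* was at 0.043. In cells thinned to 50000 reads 2 of the 10 were called between valve and other LECs, *Fn1* in valve LECs was at 0.032 and the difference for *Reln* at 0.21. With the first plate of each mouse the difference for *Reln* was 0.18.

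With each mouse left out in turn, the count of the 10 genes called ranged from 0 to 3 in LECs and from 0 to 2 for the difference of the effects. The lowest was without control 1 in LECs, and without either control for the difference. The count of all genes ranged from 153 to 546 in LECs, 127 to 534 in BECs, 105 to 210 between valve and other LECs and 0 to 19 for the difference. Between genotypes *Tgfbi* ranged from -0.83 to 0.048 and *Prelp* from -0.60 to 0.014 in LECs, *Reln* from -1.75 to 0.83 in BECs, and in valve LECs *Reln* from -1.15 to 0.49, *Tgfbi* from -1.18 to 1.80, *Emilin1* from -0.34 to 0.023 and *Prelp* from -0.83 to 0.94. *Fbn1* between LECs and BECs ranged from -0.066 to 0.17. Between valve and other LECs *Postn* ranged from -0.25 to 0.35, *Emilin1* from -0.0089 to 0.28 and *Fbln2* from -0.0065 to 0.15. The difference of the effects ranged from -1.34 to 0.99 for *Reln*, -0.86 to 0.59 for *Emilin1* and -0.031 to 0.30 for *Fbln2*.

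For shares of cells with a read, 1 pair of gene and class did not overlap in the cells as deposited, against 9 after thinning, and 9 to 20 with each mouse left out. As deposited, mutant minus control was -2.24 percentage points for *Fn1* in LECs. With at least 3 reads the mutants exceeded the controls by 12.4 points for *Prelp* and 3.44 points for *Tgfbi* in BECs. With each mouse left out the difference in BECs ranged from -31.8 to 12.6 points for *Tgfbi*, from -23.0 to 12.3 points for *Prelp* and from -3.52 to 11.3 points for *Emilin1*.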

Other observations

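The 65 cells in neither class, 39 of them from the controls, entered no comparison. Summed per mouse, *Bgn* was read in them at 282 to 2141 CPM, *Prelp* at 158 to 912 CPM and *Fn1* at 39.6 to 919 CPM. *Postn* was read at 455 and 815 CPM in control 1 and control 2 and between 0 and 663 CPM in the mutants. *Reln*, the gene that differed most between LECs and BECs, was read at 2.88 to 26.8 CPM in these cells.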
